A study of Mus musculus with 105 samples.

Results

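Wild-type (WT) liver at 5 months was compared with WT liver at 3 months in mice treated with DEN (diethylnitrosamine), a chemical that hepatocytes activate into a DNA-damaging carcinogen. The comparison used 14 bulk RNA libraries of the series, taken by their labels from 60 in the first sequencing group and 45 in the second, and every one of the 12966 listed genes. The first set held 4 libraries at 3 months and 4 at 5 months from the first sequencing group. The second set held 3 and 3 libraries from the second sequencing group. All 4 groups were WT, DEN-treated and labelled as normal liver. Other groups of the series carried knockouts labelled Ikk (IKO), Shp2 (SKO), beta catenin (BKO) or cMet (MKO), which the study title places in hepatocytes, and every genotype was sampled at 1, 3, 5 and 8 months. The labels used here give no strain, sex, DEN dose, age at injection or hour of collection. They call the replicates biological but do not say that each was a separate animal, so p-values measure the spread between libraries.

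Both ages precede the age at which tumours were sampled in this series. Adult mouse liver keeps a set of functions that depend on age, feeding, hour of the day and sex: secretion of plasma proteins, lipid export in apolipoprotein B particles, cytochrome P450 metabolism and control of body iron. Iron control runs through hepcidin, a peptide secreted by hepatocytes that causes degradation of the iron exporter ferroportin and so lowers the entry of iron into blood. Mice carry a pair of hepcidin genes side by side. Hamp encodes the peptide that regulates iron, and Hamp2 encodes a close relative without a clear role in iron control.

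Depth was 6558729 to 8127160 reads on listed genes in libraries of the first set and 9945816 to 13598755 in those of the second. Levels below are normalised reads, which are reads scaled to a common depth and recovered from the deposited values, and each difference is on the deposited log2 scale, 5 months minus 3 months, with its standard error. At low levels that scale shrinks differences, which are then smaller than the log2 ratio of normalised reads. A gene was called when its limma p-value, adjusted over all 12966 genes, was below 0.05. Standard errors and p-values from limma rest on a spread pooled over all groups of a fit, knockouts and tumours included. For a single gene that spread can be wider or narrower than the spread of the WT libraries compared. The first-set 3-month library of replicate 1 stood furthest from its group, with a correlation of 0.9758 against the mean of the others where the other 13 libraries had 0.9845 to 0.9927. Alb, which encodes albumin, had 346290 normalised reads in that library against 531130 to 678270 in the other 3 of its group. Counts are given below with and without it.

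The labels do not say whether both sets drew on the same livers, and the libraries were therefore compared 1 to 1. For each library the deviation from its own group mean was taken over 4879 well expressed genes. At 5 months the second-set replicates 1, 2 and 3 correlated best with the first-set replicates 2, 3 and 4, at r of 0.45, 0.26 and 0.41, while correlations of first-set WT with second-set knockout libraries of that age lay between -0.22 and 0.16. Best partners were also 3 different libraries at 1 month (r of 0.41 to 0.69, against at most 0.30 with the knockouts) and at 8 months (0.52 to 0.67, against at most 0.27). At 3 months the best partners were 3 different libraries as well, replicates 1, 2 and 3, but their correlations of 0.24 to 0.31 lay within the range for the knockouts, which reached 0.40. A common source of both sets was not tested, so the second set is not used here as independent evidence, and if livers were shared, p-values are too small for the mean of both sets and too large for the difference between them.

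**Figure D1:**
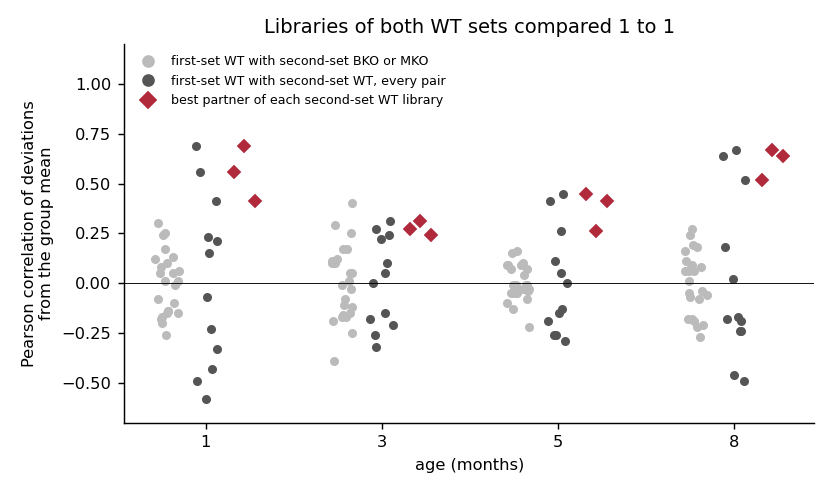
Pearson correlation of deviations from the group mean between single libraries of both sets (vertical axis) at each age in months (horizontal axis), for knockout pairs (light points), WT pairs (dark points) and the best partner of each second-set WT library (diamonds). At 5 months the diamonds sit at 0.26 to 0.45, above the highest knockout pair at 0.16, whereas at 3 months they lie inside the range of the knockout pairs.

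On the deposited log2 scale Hamp2 had the largest rise of all genes in each set. Its first-set levels at 3 months were 433.4, 593.2, 2589 and 1464 normalised reads in replicates 1 to 4, and at 5 months 1897, 139350, 127470 and 80952. In the second set they were 410, 818.3 and 2018 at 3 months and 99926, 101550 and 81256 at 5 months. All second-set libraries at 5 months lay above all at 3 months, whereas first-set replicate 1 at 5 months stayed within the 3-month range. The log2 difference was 5.31 ± 0.94 in the first set (limma adjusted p = 0.00083) and 6.68 ± 0.77 in the second (adjusted p = 3.72e-06), and leaving out first-set replicate 1 of 5 months gave 6.78.

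Hamp, the neighbouring hepcidin gene, did not pass the test in either set. It ranged from 86019 to 179310 normalised reads at 3 months and from 139950 to 222140 at 5 months in the first set, and its second-set libraries at 5 months, 103110 to 129020, overlapped those at 3 months, 117130 to 155910. The differences were 0.51 ± 0.41 (adjusted p = 0.582) and -0.20 ± 0.78 (adjusted p = 1). The transcripts of the pair share 388 identical bases over their 410 (Hamp) and 437 (Hamp2) bases, so the split of reads between them depends on how the aligner and counter treated reads that match both, and their levels are uncertain to that extent.

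Both genes lie on the minus strand of chromosome 7 in GRCm38, Hamp2 at 30922372 to 30924181. The upstream sequences are shown because 1 of these neighbours rose and the other was not called. They are the 250 bases before each start site, from RefSeq on GRCm38.p6, at chr7:30944030-30944279 for Hamp and chr7:30924182-30924431 for Hamp2. Capitals mark GGCGCC, the core of elements that respond to bone morphogenetic protein signals through SMAD factors, and TTCNNNGAA, a binding pattern of STAT factors:
Hamp: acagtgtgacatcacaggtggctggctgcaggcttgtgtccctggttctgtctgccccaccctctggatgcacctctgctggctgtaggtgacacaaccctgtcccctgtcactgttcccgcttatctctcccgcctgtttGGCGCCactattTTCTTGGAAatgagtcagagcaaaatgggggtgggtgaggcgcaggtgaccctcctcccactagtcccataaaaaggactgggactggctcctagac
Hamp2: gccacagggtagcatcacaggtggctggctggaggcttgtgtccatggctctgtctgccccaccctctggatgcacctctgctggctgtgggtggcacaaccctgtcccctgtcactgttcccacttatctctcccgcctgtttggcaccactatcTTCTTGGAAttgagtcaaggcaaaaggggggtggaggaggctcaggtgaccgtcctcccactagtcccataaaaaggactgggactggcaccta
The aligned promoters have 227 identical bases, 20 mismatches and 6 gap positions. GGCGCC begins 109 bases before the start site of Hamp, and Hamp2 has GGCACC at the aligned place, 106 bases before its own start. TTCNNNGAA begins 97 bases before the start of Hamp and 94 before that of Hamp2. Searched separately on both strands, GGCGCC is present in 9.59% and TTCNNNGAA in 7.02% of 32851 promoters of the same length, and a match describes letters only.

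Other genes of iron control moved little. Of 15 measured members of the iron list Hamp2 was the only one called in either set, and the median difference of the list was 0.10 in the first set and 0.02 in the second, against 0.01 and 0 over all genes. Tfr2 and Hfe, which encode membrane proteins of iron sensing in hepatocytes, differed by 0.18 (adjusted p = 0.617) and 0.30 (adjusted p = 0.187) in the first set. In the second set they differed by 0.125 and 0.356, neither called. Hfe there had 487.0 to 677.0 normalised reads at 3 months and 697.7 to 944.4 at 5 months. Those groups were apart, as for 6.93% of all genes in that direction. Id1, a target gene of bone morphogenetic protein signals, had 32.6 to 46.0 normalised reads at 3 months and 35.6 to 54.5 at 5 months in the first set, and 10.2 to 23.2 and 10.6 to 15.2 in the second. Slc40a1, which encodes ferroportin, overlapped between ages in the first set with 294.7 to 356.4 and 213.7 to 365.7 normalised reads.

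Hddc3, which encodes a phosphohydrolase of the HD family that cleaves NADPH and the alarmone ppGpp, was the only other gene called in both sets. It lies at 80343075 to 80346716 on chromosome 7. The first set held 3.38, 1.15, 4.60 and 14.8 normalised reads at 3 months and 12.3, 53.1, 59.0 and 62.8 at 5 months. The second set held 10.9, 4.38 and 8.79 at 3 months and 91.0, 84.1 and 70.1 at 5 months. As for Hamp2, first-set replicate 1 at 5 months fell within the 3-month range and every other 5-month library was above it. The differences were 1.42 ± 0.24 (limma adjusted p = 0.000723) and 1.88 ± 0.33 (adjusted p = 0.00978). Shrinkage at low levels applied here, since the ratios of mean levels, 5 to 3 months, were 7.83 and 10.2.

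Over the 28 non-tumour WT libraries of all 4 ages, Hddc3 was the gene whose deposited values followed those of Hamp2 most closely, with r = 0.90, ahead of Whrn at -0.81 and Limd2 at 0.78. These points share libraries and depth, and the age groups themselves set much of the correlation, so it is a description. Hamp2 was also high at 1 month in part of the libraries, from 2259 to 40566 normalised reads in the first set and 3508 to 42679 in the second, and low at 8 months, from 108.4 to 497.2 and 176.6 to 438.1. Hddc3 had 15.8 to 75.6 and 70.9 to 97.7 at 1 month and at most 14.7 at 8 months. The levels thus alternated with age in WT liver rather than moving in 1 direction.

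**Figure D2:**
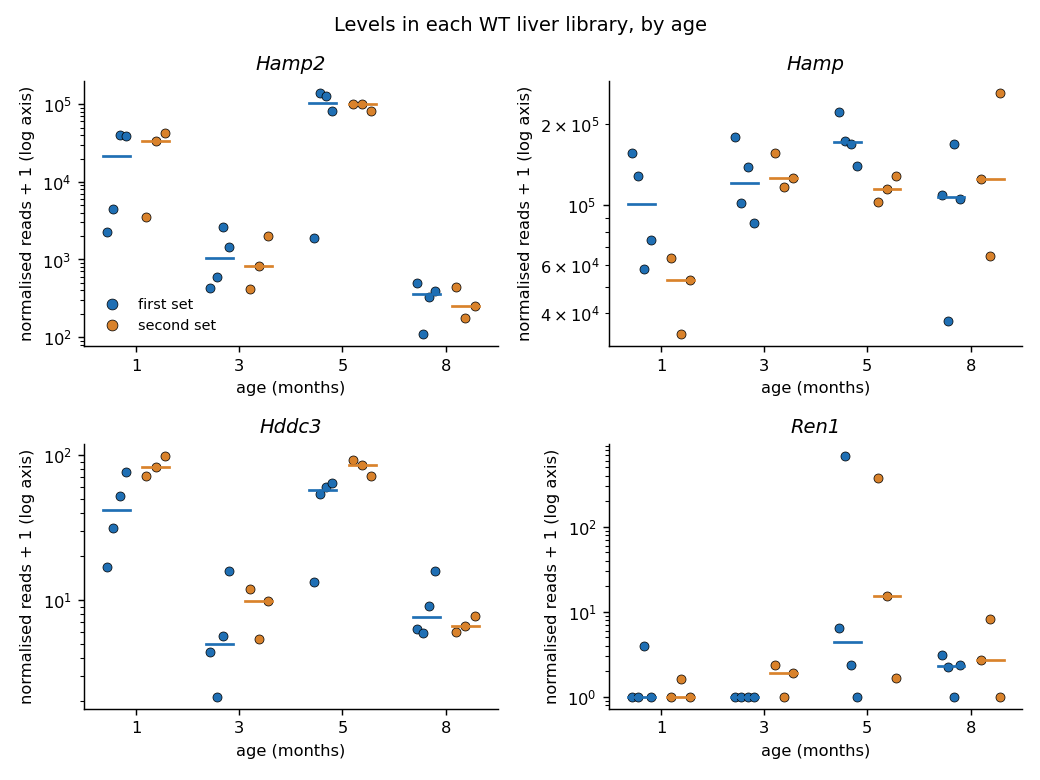
Normalised reads plus 1 on a log axis (vertical) in each non-tumour WT library by age in months (horizontal), with the first set in blue, the second in orange and group medians as lines. Hamp2 and Hddc3 were high at 5 months except in first-set replicate 1, Hamp did not follow them, and Ren1 was high in 1 library of each set.

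In the knockouts at 5 months both genes lay below every WT library of that age other than first-set replicate 1. At 5 months Hamp2 had 394.2 to 1773 normalised reads in IKO, 195.0 to 556.3 in SKO, 2912 to 10528 in BKO and 472.2 to 634.9 in MKO livers, and its log2 differences from 3 to 5 months, -0.52, -0.87, 0.92 and 0.13 in that order, did not pass limma's test (adjusted p from 0.646 to 1). In the same comparison 1.86% of all genes were called in IKO, 1.10% in SKO, 0.270% in BKO and 0% in MKO livers. Whether the WT change differed was tested as the WT difference minus the knockout difference within a sequencing group, 4 comparisons added after the data had been seen. For Hamp2 it was 6.18 ± 1.33 against SKO (limma adjusted p = 0.00465), 5.76 ± 1.09 against BKO (adjusted p = 0.0379) and 6.55 ± 1.09 against MKO (adjusted p = 0.00966), whereas 5.83 ± 1.33 against IKO did not pass (adjusted p = 0.174). All BKO libraries of 5 months lay above every WT library of 3 months, which had at most 2589. The share of all genes called in these comparisons was 2.89% against SKO, 0.0308% against BKO, 0.00771% against MKO and 0.00771% against IKO.

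Hddc3 had 4.19 to 13.8 normalised reads in SKO, 1.86 to 10.4 in IKO, 9.32 to 13.3 in BKO and 4.91 to 17.0 in MKO livers at 5 months, so that the highest MKO library was above the 14.8 reached in WT at 3 months. At 3 months BKO livers had 14.5 to 17.6. Its WT change differed from that in SKO by 1.42 ± 0.34 (limma adjusted p = 0.0122). Larger differences did not pass against IKO (1.56 ± 0.34, adjusted p = 0.123), BKO (2.11 ± 0.46, adjusted p = 0.122) or MKO (1.72 ± 0.46, adjusted p = 0.596). Adjusted p depends on all genes of a comparison, so the call against SKO alone does not set SKO apart. The SKO library labelled replicate 2 at 3 months held 375.1 normalised reads of Ptpn11, the targeted gene, inside the WT range of 350.1 to 387.7. The others of its group held 107.1 to 159.3. Levels of Ikbkb, Ctnnb1 and Met in their knockouts at 3 months overlapped WT. At 5 months Ptpn11 in SKO (159.3 to 196.6 against 291.8 to 382.7 in WT) lay below every WT library of its set. So did Ikbkb in IKO (208.8 to 316.4 against 342.3 to 374.0) and Met in MKO (146.6 to 215.9 against 253.7 to 271.7). Ctnnb1 in BKO (100.9 to 128.4) overlapped WT (92.4 to 146.6). Of the 54 genes named, 14 were called against SKO, 1 each against BKO and MKO and 0 against IKO. Most were named for their change in the same WT libraries, so these counts are no independent support. Bach1 (-1.24, adjusted p = 0.00435), Ost4 (0.98, adjusted p = 0.00125), Uqcrb (1.27, adjusted p = 0.0017) and Zfp36 (1.36, adjusted p = 0.00212), described below, had smaller adjusted p against SKO than Hamp2. Against BKO the Hamp2 call was lost in 13 of 20 alternative fits, with adjusted p from 0.00344 to 0.197.

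**Figure D3:**
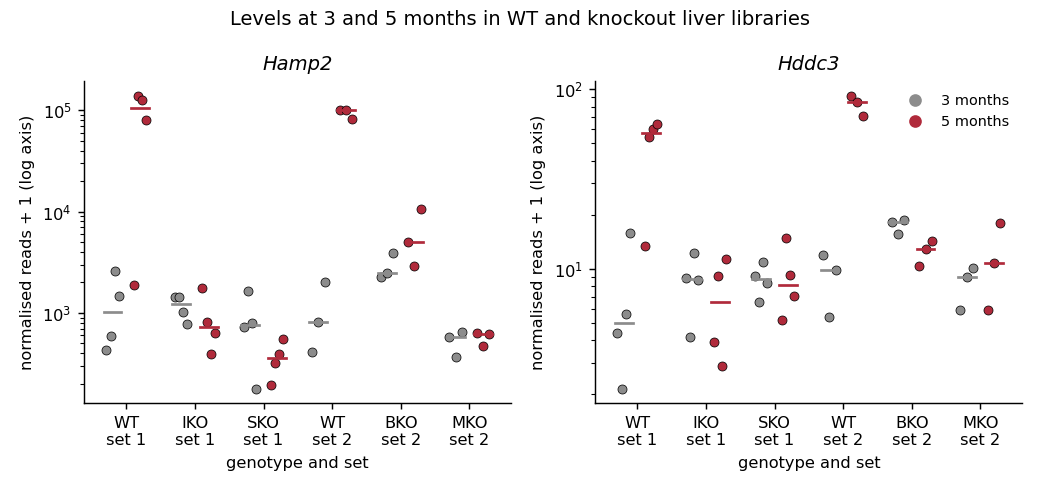
Normalised reads plus 1 on a log axis (vertical) of Hamp2 and Hddc3 in each library at 3 months (grey) and 5 months (red), by genotype and set (horizontal), with group medians as lines. Only WT libraries of 5 months reached 80952 or more for Hamp2, and BKO libraries of 5 months reached 10528.

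Across all genes the first set called 337 of 12966 genes (2.60%), 179 higher at 5 months (1.38%) and 158 lower (1.22%). Without replicate 1 of 3 months, the library that stood apart, 144 were called. The count also fell to 112 without replicate 2 of 3 months and to 160, 142 and 185 without replicates 1, 3 and 4 of 5 months, and a fit on the 8 libraries alone called 16, 15 of them among the 337. Quantile normalization called 61 higher and 117 lower, so the balance of directions depended on the scaling. The second set called 4 genes, all higher (0.0308%): Hamp2, Hddc3, Themis and Osbpl3. Its unadjusted limma p was below 0.05 for 669 of 12966 genes, against 2121 in the first set, where a share of about 0.05 is expected without any change.

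The mean of both sets called 204 genes (1.57%), 129 higher (0.995%) and 75 lower (0.578%), from p-values that are too small if livers were shared. Without first-set replicate 1 of 3 months the count was 102, and after quantile normalization it was 42 higher and 61 lower. No gene was called for a difference between the sets, where limma gave 688 of 12966 an unadjusted p below 0.05 and a smallest adjusted p of 0.199. For this difference limma-voom on recovered reads also called 0 and a fit with library weights called 4. A call in 1 set alone is therefore not shown to be a difference between the sets, and the count of 0, from a fit that treats the sets as separate livers, does not show that they were alike. Of the 179 genes higher in the first set 136 (76%) were above 0 in the second set, with a median of 0.13 against 0.57 in the first. Of the 158 lower ones 115 (72.8%) were below 0, with medians of -0.08 and -0.61. Over all genes 60.7% had the same sign and the differences correlated at r = 0.42, a description, since the sets may share livers and the first-set values chose the genes.

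**Figure D4:**
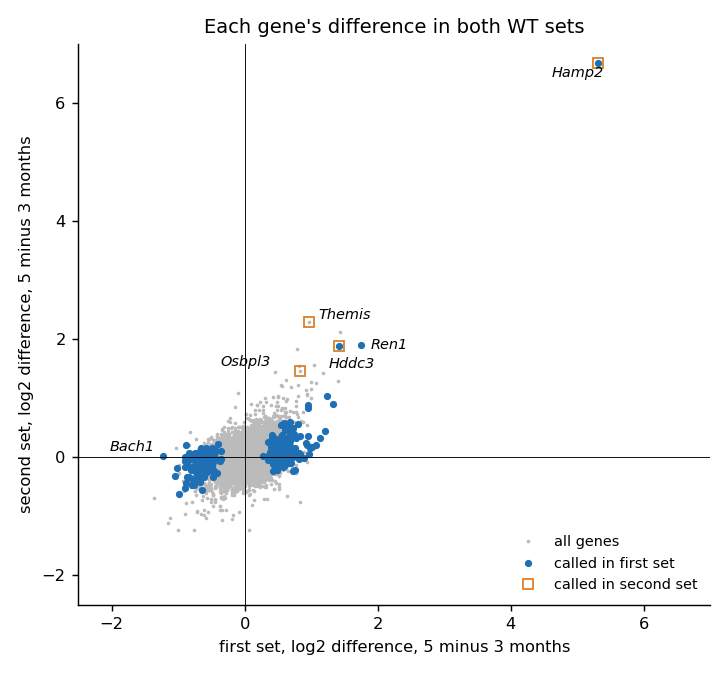
Log2 difference of each gene, 5 minus 3 months, in the first set (horizontal) and the second set (vertical), with genes called in the first set in blue and in the second set as orange squares. Hamp2 stands alone at 5.31 and 6.68, and most first-set calls lie near 0 on the vertical axis.

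Transcript length moved with the first-set differences. Across 12214 genes with a length, Spearman's correlation of the difference with length was -0.30 in the first set and -0.09 in the second, and genes are not independent replicates. The 172 called-higher genes with a length had a median of 1890.5 bases, the 153 called-lower genes 5049, and all genes 3141. The mean log2 level of 1505 genes with transcripts of at least 5161 bases minus that of 1527 genes with at most 1793 was taken in each library. It was -0.57 ± 0.12 (SD, n = 4) at 3 months and -0.86 ± 0.04 (n = 4) at 5 months in the first set (exact permutation test, two-sided p = 0.0286). The second set had -0.75 ± 0.03 and -0.83 ± 0.01 (n = 3 each, exact permutation test, two-sided p = 0.1). Each p is the smallest its design allows, and the comparison was added after the data had been seen. In both sets the groups were apart, and the highest value, -0.40, was that of the first-set 3-month replicate 1. Without that library the 3-month mean was -0.63 ± 0.05 (n = 3), the groups were still apart, and the exact two-sided p was 0.0571, the smallest that 3 against 4 libraries allow. When each library's trend on length was removed, the first set called 149 genes, 134 of them also called without it, and the second set kept its count of 4. Beyond that fit, the part of transcript length in the results below was not tested.

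**Figure D5:**
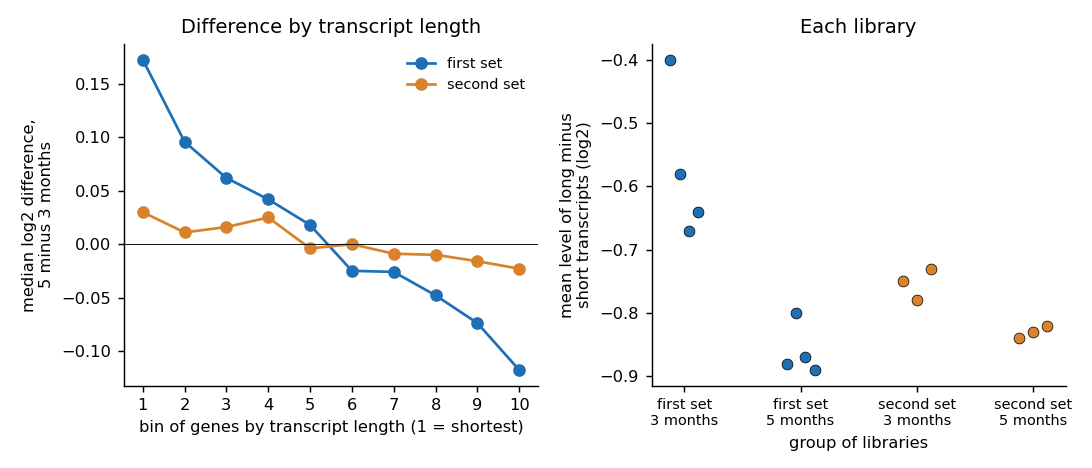
Left, median log2 difference, 5 minus 3 months, in 10 bins of genes ordered by transcript length for each set; right, mean log2 level of long minus short transcripts in each library by group. The first-set medians run from 0.173 in the shortest bin to -0.118 in the longest, against 0.030 and -0.023 in the second set.

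A4gnt, Ren1 (below), G0s2 and Rnd1 were among the largest rises in the first set. A4gnt, a glycosyltransferase, had 5.63, 8.05, 43.7 and 42.3 normalised reads at 3 months and 80.8, 61.7, 95.2 and 97.2 at 5 months. G0s2, an inhibitor of the triglyceride lipase ATGL, had 85.6, 152.9, 244.8 and 139.4 at 3 months and 298.6, 318.4, 426.3 and 514.2 at 5 months. The groups of both genes were apart, with differences of 1.32 ± 0.36 (limma adjusted p = 0.0361) and 1.23 ± 0.34 (adjusted p = 0.0399). Under alternative fits, which change the scaling, the libraries or the model, the call was lost in 7 of 16 for A4gnt and 12 of 17 for G0s2. Both also had all second-set libraries of 5 months above those of 3 months, as had 6.93% of all genes in that direction, with differences of 0.90 (adjusted p = 0.705) and 1.03 (adjusted p = 0.891).

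Rnd1, a regulator of the cytoskeleton, rose by 1.21 ± 0.24 (adjusted p = 0.00312), from 55.2 to 69.7 normalised reads at 3 months to 145.0 to 226.6, and differed by 0.45 in the second set (adjusted p = 0.994). Its second-set groups, 21.2 to 33.4 and 42.1 to 51.3, were apart as well, as for 6.93% of all genes in that direction. Pls3, an actin-bundling protein, rose by 1.13 ± 0.26 (adjusted p = 0.0117), against 0.32 in the second set (adjusted p = 0.994). Ugt3a2, a UDP-glycosyltransferase, rose by 1.07 ± 0.28 (adjusted p = 0.0249). Ugt3a2 went from 2740 to 2875 at 3 months to 5286 to 6701 at 5 months, with no overlap, while in the second set it had 1191 to 1953 and 1334 to 1910. The smallest adjusted p of the first set belonged to Ost4, a small subunit of the oligosaccharyltransferase that glycosylates proteins in the endoplasmic reticulum. Ost4 had 235.6 to 273.6 and 454.5 to 595.9 normalised reads (0.96 ± 0.13, adjusted p = 9.03e-06), and in the second set 187.3 to 291.9 and 174.4 to 321.9 (0.06 ± 0.24, adjusted p = 1).

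Among the genes named, Bach1 had the largest called fall of the first set on the deposited log2 scale. In normalised reads Trmt10c, described below, fell further, with a ratio of mean levels, 5 to 3 months, of 0.103 against 0.229 for Bach1. Bach1, a heme-binding repressor of antioxidant and heme oxygenase genes, had 76.5, 73.6, 42.5 and 47.5 normalised reads at 3 months and 17.8, 18.6, 8.04 and 10.5 at 5 months. Its groups were apart, as for 3.78% of all genes in that direction, and the difference was -1.23 ± 0.19 (limma adjusted p = 9.43e-05), whereas the second set had 58.7 to 81.8 and 63.7 to 84.5 (0.01 ± 0.23, adjusted p = 1). Resf1, a factor linked to silencing of endogenous retroviruses, fell by 1.05 on the log2 scale (adjusted p = 0.00151). Rapgef4, an exchange factor activated by cyclic AMP, fell by 0.99 (adjusted p = 0.0292), a call lost in 10 of 17 alternative fits. In the second set these differed by -0.32 (adjusted p = 1) and -0.62 (adjusted p = 0.891), with groups apart for both, as for 5.99% of all genes in that direction.

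Apob, the structural protein of very low density lipoprotein particles, fell in the first set from 8945, 6838, 5639 and 5462 normalised reads to 3437, 4331, 3542 and 3269. The groups did not overlap, and the difference was -0.86 ± 0.17 (adjusted p = 0.00312). In the second set Apob had 7000 to 8171 at 3 months and 5710 to 8945 at 5 months (-0.07 ± 0.20, adjusted p = 1). Apoc1, a small apolipoprotein, moved the other way in the first set (0.58 ± 0.15, adjusted p = 0.0227), from 16161 to 22315 normalised reads to 23800 to 32138, a call lost in 11 of 17 alternative fits. These were the only calls, in the first set, among 20 apolipoprotein genes, whose median differences were 0.24 and 0.06.

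The 6 genes with the smallest p for the difference between the sets were Trmt10c, Dbr1, Bach1, Bod1l, Rev3l and Cox6c, none of them called (limma adjusted p from 0.199 to 0.417). Trmt10c, a subunit of the mitochondrial enzyme that cuts transfer RNA precursors, had 9.20 to 12.4 normalised reads at 3 months and 0 to 1.43 at 5 months in the first set, and 4.40 to 10.2 and 6.55 to 8.43 in the second. Dbr1, which opens the lariats left by splicing, had 37.0 to 65.3 and 5.98 to 31.5 in the first set and 16.1 to 22.9 and 18.6 to 34.1 in the second. For these genes the first-set groups were apart and the second-set groups overlapped.

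Hsd17b10, a mitochondrial dehydrogenase that is also a subunit of that transfer RNA enzyme, had the third smallest p for the mean of both sets. It had 621.4, 643.8, 977.0 and 857.7 normalised reads at 3 months and 1494, 1357, 1606 and 1546 at 5 months in the first set, and 598.2, 558.4 and 440.5 and then 878.9, 1114 and 897.3 in the second. Both sets were without overlap, and the differences were 0.95 ± 0.17 (limma adjusted p = 0.000894) and 0.83 ± 0.20 (adjusted p = 0.367), with a mean of 0.89 (adjusted p = 1.04e-05). The adjusted p for the mean is too small if the sets shared livers. In total 154 genes were higher and 53 lower with no overlap in both sets, which is 20.8% of the 742 higher genes apart in the first set (5.72% of all) and 17.1% of the 898 in the second. The 53 lower genes are 10.8% of 490 and 6.82% of 777.

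Tst, a mitochondrial sulfurtransferase, was among those higher in both sets (0.68 and 0.41, mean adjusted p = 0.00192). So was Cisd1, an iron-sulfur protein of the outer mitochondrial membrane (0.68 and 0.59, mean adjusted p = 0.0119). Pts, an enzyme of tetrahydrobiopterin synthesis, differed by 0.44 and 0.57 (mean adjusted p = 0.014). Nrp1, a co-receptor of vascular growth factors, was lower by no overlap in both (-0.89 and -0.52, mean adjusted p = 0.0147), as was Ltb4r1, a leukotriene receptor (-0.64 and -0.55, mean adjusted p = 0.0119). These p-values for the mean are likewise too small if livers were shared.

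Themis and Osbpl3 were called in the second set. Themis, known for its role in T cell selection in the thymus, had 3.41, 13.9 and 21.1 normalised reads at 3 months and 75.0, 165.5 and 200.6 at 5 months (2.29 ± 0.44, limma adjusted p = 0.0366). In the first set it had 5.63 to 83.4 and 39.7 to 155.5, which overlapped (0.96 ± 0.41, adjusted p = 0.205). Summed over 14 measured T and NK cell markers, levels were 153.5 to 234.8 at 3 months and 138.2 to 242.5 at 5 months in the second set, and 115.0 to 150.8 and 123.3 to 175.3 in the first. No marker of that list was called, 4 of the 14 stayed below 10 normalised reads in all 14 libraries, and Trbc2, a T cell receptor chain, had 39.6 to 52.8 and 31.2 to 49.6 in the second set.

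Osbpl3, an oxysterol-binding protein, had 21.8, 32.8 and 30.8 normalised reads at 3 months and 75.8, 125.7 and 170.4 at 5 months in the second set (1.46 ± 0.29, adjusted p = 0.0443). In the first set 31.5 to 88.7 and 51.6 to 198.8 overlapped (0.83 ± 0.36, adjusted p = 0.218). The Themis call was lost in 8 of 15 alternative fits (adjusted p up to 0.474) and the Osbpl3 call in 9 of 15 (up to 0.5). For neither gene was the difference between the sets called (adjusted p = 0.902 for Themis and 1 for Osbpl3).

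Ren1, which encodes renin, was close to 0 in nearly all livers and high in 1 library of each set. The first set held 0 in all 4 libraries at 3 months and 5.48, 682.6, 1.34 and 0 normalised reads at 5 months. The second set held 1.36, 0 and 0.879 at 3 months and 376.7, 14.2 and 0.655 at 5 months. The high library of the second set, replicate 1, is the one whose best partner by deviations was replicate 2 of the first set, the high library there. The first-set difference of 1.74 ± 0.48 (adjusted p = 0.0385) was 0.44 without that library (adjusted p = 0.327), and the call was lost in 10 of 16 alternative fits.

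Mitochondrial respiratory chain genes, which encode subunits of the electron transport complexes and ATP synthase, formed the list with the most calls. In the first set 5 of 33 were called higher and 0 lower, against 1.38% higher over all genes. The median difference was 0.33 with 33 of 33 above 0, against 6702 of all 12966 genes. The 5 called were Cox6c (0.73, limma adjusted p = 0.0095), Ndufb3 (0.62, adjusted p = 0.0262), Ndufs1 (0.51, adjusted p = 0.0361), Uqcrb (0.61, adjusted p = 0.0445) and Sdhb (0.56, adjusted p = 0.0495). The calls were lost in 3, 8, 9, 13 and 14 of 17 alternative fits, in that order. Sdhb, a subunit of complex II, had 1181 to 1323 normalised reads at 3 months and 1597 to 1983 at 5 months. In the second set 0 were called, the median was 0.10 and 24 of 33 were above 0, against 6519 of all 12966 genes.

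The list's median transcript length was 1363 bases, shorter than the median of 3141 over all genes. With each library's trend on length removed, 0 of 33 were called in the first set, the median was 0.19 and 30 were above 0, and in the second set the median was 0.08. Among 43 ribosomal protein genes, which are also short, 1 was called, Rplp2 (0.59, adjusted p = 0.0449, lost in 13 of 17 alternative fits), and the medians were 0.14 and -0.03.

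Of 50 gene lists covering pathways, liver zones, cell types and sample checks, 38 had no call in the first set, and 16 of 940 measured list members (1.7%) were called, against 2.60% of all genes. In the second set the iron list alone held a call. Single calls in the first set included Tkt, transketolase of the pentose phosphate pathway (0.46, adjusted p = 0.0449). Zfp36, which encodes the messenger RNA decay factor tristetraprolin, rose by 0.84 (adjusted p = 0.0113), and B2m, the light chain of MHC class I, by 0.48 (adjusted p = 0.0473). Pdia3, an endoplasmic reticulum chaperone, fell by 0.67 on the log2 scale (adjusted p = 0.0449), and Mcm7, a subunit of the replicative helicase, by 0.62 (adjusted p = 0.0217). Of 17 alternative fits, the call was lost in 12 for Tkt, 4 for Zfp36, 13 for B2m, 10 for Pdia3 and 6 for Mcm7, and the B2m difference was as low as 0.21.

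Lists of drug metabolism, lipid synthesis and gluconeogenesis held no call in either set, and their medians were above that of all genes. The 27 xenobiotic genes had medians of 0.19 and 0.36, the 27 pericentral genes 0.22 and 0.32, the 27 lipogenic genes 0.11 and 0.22, and the 22 genes of gluconeogenesis and insulin response 0.20 and 0.20. Cyp2b10, a cytochrome induced through the receptor CAR, had 28.1, 54.0, 66.7 and 75.0 normalised reads at 3 months and 130.1, 357.1, 335.2 and 62.8 at 5 months in the first set, and 91.4, 55.5 and 150.3 and then 372.5, 392.1 and 121.2 in the second. In each set 1 library of 5 months, replicate 4 and replicate 3, which were partners by deviations, stayed within the 3-month range. Cyp2b10 was called in neither set but was called for their mean (1.35, limma adjusted p = 0.0379), a p-value that is too small if the sets shared livers. Thrsp, a regulator of lipogenesis, had 13968 to 27399 and 38278 to 39592 normalised reads in the first set and 12795 to 14224 and 24258 to 30571 in the second, with no overlap, yet was not called in either (0.94, adjusted p = 0.288, and 1.07, adjusted p = 0.994).

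Lists for functions that change with hour, sex and growth hormone held no call in either set. The 24 clock genes had medians of 0.10 and 0.12, and Nr1d1, a repressor of the clock, had 1363 to 3004 normalised reads at 3 months and 2576 to 3441 at 5 months in the first set. The 18 major urinary protein genes, which depend on growth hormone pulses in males, had medians of -0.04 and -0.07. The 16 genes with female-biased and 19 with male-biased expression had medians of -0.12 and -0.07 in the first set and 0 and -0.20 in the second. No member of the p53 and senescence list or the oncofetal list was called, and Cdkn1a, a p53 target that arrests the cell cycle, had 60.9 to 146.8 and 58.9 to 177.0 normalised reads in the first set.

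Markers of cells other than hepatocytes also showed no call in either set. In bulk liver fewer cells of a type and less RNA per cell cannot be told apart. Summed over 17 Kupffer cell markers, levels were 3325 to 4341 normalised reads at 3 months and 3652 to 7250 at 5 months in the first set, and 4602 to 5387 and 3685 to 6786 in the second. Stellate and matrix genes had 4835 to 6471 and 5162 to 6291 in the first set, and endothelial genes 4891 to 5166 and 4162 to 5116. The adipocyte list was the 1 marker list of other cells with several measured members whose summed level was apart in both sets, at 7815 to 10360 and 11730 to 15200, and at 9523 to 11330 and 16340 to 37460. Nearly all of it was Car3, a carbonic anhydrase that hepatocytes also express, while Adipoq, the defining adipocyte hormone, was at 0 in all 5-month libraries.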

How the data were processed

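Total RNA of bulk mouse liver was sequenced. Per the submitters' processing notes, STAR 2.7.10a, HTSeq 2.0.2 and DESeq2 1.32.0 were named with GRCm38 (mm10), without the role of each. The deposited values are log2-scale values for 12966 genes in the 60 and 45 libraries of both sequencing groups, all with the same floor of 3.8289. Tested on the values, they are a variance-stabilising transform of size-factor scaled reads, although the deposited name gives other units: undoing it gave whole reads within 0.05 for 100.0% of values. Normalised reads are the values before that transform.

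Differences came from limma 3.58.1 in R 4.3.3 on the deposited values, with 1 mean per group over all 60 libraries of sequencing group 1 or all 45 of sequencing group 2, a trended prior and Benjamini-Hochberg adjustment over all genes. The mean of both sets and the difference between them came from 1 fit of both sequencing groups. No filter on low values was used, and the limma script was tested on simulated data. Gene positions came from RefSeq GRCm38.p6 (12898 genes placed by symbol) and transcript lengths from GENCODE M21 on GRCm38, as the longest protein-coding transcript (12214 genes). Genes were named by rule: the 6 largest rises and falls per set without overlap, genes called in both sets, the 6 smallest p for the difference between the sets, and up to 3 called members of each list. Predicted genes were passed over, and the text gives those that show each result. Of these, 1 called list member is not reported here. Hamp, Ren1, Ost4, Cyp2b10, Hsd17b10, Tst, Cisd1, Pts, Nrp1, Ltb4r1, Uqcrb, Sdhb, Thrsp and the other members of the iron list and controls were chosen after their values were seen. The genes and lists were chosen with earlier results of these data known. The comparisons with knockouts, the removal of the length trend and the comparison of long with short transcripts were added after the data had been seen.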

Additional observations from a re-analysis of the deposited data

Results flagged for a closer look

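For the 54 genes named, the 4 libraries of each first-set group were checked for 1 value far from the others (Dixon's test at its 95% critical value). The check used the deposited values, and normalised reads are given here. Of 108 groups 10 met it, and chance gives about 1 in 20. Ren1 at 3 months and Adipoq at 5 months, counted among the 108, were at 0 throughout and could not be tested. At 5 months replicate 1 was low for Hamp2, with 1897 normalised reads against 80952 to 139350, and for Hddc3, with 12.3 against 53.1 to 62.8, and high for Hfe, with 532.9 against 438.4 to 445.5. Replicate 2 of 5 months was high for Ren1, with 682.6 against 0 to 5.48, and for Id1, with 54.5 against 35.6 to 37.4, and low for Ltb4r1, with 2.87 against 9.38 to 10.5. Replicate 4 of 5 months had 0 for Trmt10c against 1.34 to 1.43. At 3 months replicate 1 was high for Trmt10c, with 12.4 against 9.20 to 9.51, and for Adipoq, with 2.25 against 0, and replicate 3 for Sdhb, with 1323 against 1181 to 1202.

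The change from 3 to 5 months differed between WT and knockout livers by limma's test of the difference for Hamp2 against SKO (6.18, adjusted p = 0.00465), BKO (5.76, adjusted p = 0.0379) and MKO (6.55, adjusted p = 0.00966) and for Hddc3 against SKO (1.42, adjusted p = 0.0122). Another 12 of the genes named differed against SKO, where 2.89% of all genes were called. The WT change was more positive for Cyp2b10 (2.22), Rnd1 (1.40), Zfp36 (1.36), Uqcrb (1.27), Ost4 (0.98), Hsd17b10 (0.94), Cisd1 (0.94), Pts (0.93), Ndufs1 (0.91) and Ndufb3 (0.89), and more negative for Bach1 (-1.24) and Dbr1 (-0.87), with limma adjusted p from 0.00125 for Ost4 to 0.0357 for Cyp2b10. Over 24 alternative fits Cyp2b10 lost the call in 12, Dbr1 in 11 and Ndufb3 in 10, and the other 9 in 5 or fewer. From 3 to 5 months SKO itself changed by -0.81 for Cyp2b10, -0.66 for Uqcrb, -0.53 for Zfp36, -0.49 for Pts and -0.40 for Ndufs1. The change was -0.27 for Ndufb3, -0.25 for Cisd1 and -0.20 for Rnd1. It lay from -0.02 to 0.01 for Dbr1, Ost4, Bach1 and Hsd17b10. Of these SKO changes only that of Uqcrb was called (limma adjusted p = 0.0398). Ost4 at 3 months had 390.2 to 571.1 normalised reads in SKO, against 235.6 to 273.6 in WT.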

How the results depend on the processing

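No named gene changed direction while called under any setting run, but counts of calls depended on the processing. For the first set (337) the count was 178 with quantile normalization, 16 with only the groups compared, 174 with only WT non-tumour groups and 149 with the transcript length trend removed. For the second set (4) it was 2, 2, 5 and 4 under those settings, 14 with library weights and 1 with limma-voom. For the mean of both sets (204) it was 103 with quantile normalization, 313 with only WT non-tumour groups, 777 with library weights and 117 with the length trend removed. For the difference between the sets (0) it was 4 with library weights. Leaving out 1 library at a time gave 112 to 357 calls in the first set, 1 to 5 in the second, 65 to 291 for the mean (lowest without replicate 2 of the second set at 3 months) and 0 to 1 for the difference. Other causes of these shifts were not tested.

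With the replicate number as a block among the libraries compared, the counts were 0 in both sets, 57 for the mean and 0 for the difference. The labels do not say whether equal numbers pair the samples. Deviations of libraries with the same number correlated at -0.07, 0.16, 0 and 0.10 in the first set and at 0.18, 0.16 and -0.15 in the second. Libraries with different numbers had -0.17 to 0.15 and -0.34 to 0.22. These values show no pairing by number but cannot exclude one. Hamp2 kept its call in 15 of 17 alternatives in the first set and 14 of 15 in the second, with adjusted p up to 0.19 and 0.117, and Hddc3 in 15 of 17 and 10 of 15. Of 34 named genes called in the first set 13 lost the call in more than 50% of their alternative fits, as did 2 of 4 in the second set and 1 of 16 results against a knockout, and over these 54 results the call was kept in 708 of 1011 fits (70%). Values that were not called gained a call in 12 fits. The difference in long minus short transcripts was -0.28 and -0.08 in the sets, and -0.32 to -0.23 and -0.09 to -0.07 without 1 library, where so few libraries cannot reach an exact p below 0.0571 and 0.2. Depth limits genes such as Trmt10c, Hddc3 and Ren1, which rest on few reads.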
